A study of Arabidopsis thaliana with 12 samples.

Results

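The measurement described here is the difference of the temperature change between pft1-1 and wild-type (WT) Arabidopsis thaliana seedlings. For each probe set, the temperature change was the 23C mean minus the 16C mean in log2 units, and the WT temperature change was subtracted from the pft1-1 temperature change. A positive difference therefore means that the level at 23C relative to 16C was higher in pft1-1 than in WT, and a negative one that it was lower. A difference of 1 on this scale is a 2-fold ratio of ratios. All 12 arrays of the series entered, with 3 arrays in each of 4 groups: pft1-1 at 23C, pft1-1 at 16C, WT at 23C and WT at 16C. All plants were whole 10-day-old seedlings in the Columbia background, raised on agar with MS salts under continuous cool-white light of 80 micromoles per second and square metre. The mutant was represented by a single line, pft1-1, with no second allele or complemented line among these arrays. Each group had biological replicates lettered A, B and C, with RNA prepared independently for each, and 22746 probe sets that are not controls were tested of the 22810 in the table.

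PFT1, also called MED25, is a subunit of Mediator, the large complex that carries signals from DNA-bound transcription factors to RNA polymerase II. In Arabidopsis it is known for its part in flowering and light responses and in jasmonate signalling, where it binds transcription factors that switch on defence genes such as the plant defensins. Ambient temperature is itself a signal for seedlings and alters growth, flowering time and defence, and the interaction measured here asks of each gene whether the size or the direction of that response was the same with and without an intact PFT1 gene. PFT1, CO and FT had no named probe set and were not analysed here, so the genotype labels could not be checked on the mutated gene itself.

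Letter C stood apart from letters A and B in the control probe sets. The difference between the 3′ and 5′ ends of the Actin, GAPDH and ubiquitin controls, a sign of RNA length and labelling, ran from 3.52 to 4.53 log2 units across the letter C arrays, against 2.64 to 3.07 across those of A and B. The highest of these values, 4.53, was on the pft1-1 23C array of letter C, which also had the highest hybridisation spike-in mean, 11.08. As a difference of temperature changes the 3′ to 5′ measure came to 0.22 in letter A, 0.34 in letter B and 0.76 in letter C, a mean of 0.44 (two-sided exact sign-flip permutation test over the letters, p = 0.25, the smallest that 3 letters allow). The poly-A spike-ins averaged 4.84 to 9.51 in letter C and 2.45 to 2.54 in letters A and B. The 25S rRNA control stood at 9.91 and 10.05 on the pft1-1 23C arrays of letters B and C and at 9.74 on the WT 16C array of letter C, and at 7.94 or lower elsewhere. The part of these measures in the results was not tested, and the values of single letters are given beside many of the results. RCA, the rubisco activase of green tissue, averaged 14.72 in pft1-1 and 14.67 in WT at 23C, with a difference of temperature changes of -0.02. The root-hair expansins EXPA7 and EXPA18 had differences of -0.54 ± 1.14 and -0.19 ± 0.93 (SE), and the guard-cell factor FMA had -0.15 ± 0.41. At 23C EXPA7 averaged 2.21 in pft1-1 and 2.03 in WT, and EXPA18 averaged 2.41 in pft1-1 and 2.33 in WT. Those means were under the lower quartile of all values, 2.52, where a change can be compressed. The 2 expansins thus cannot show whether root content was alike. RCA, EXPA7, EXPA18 and FMA were the only markers with a named probe set of 7 for green tissue, 10 for root and 2 for guard cells, and 0 of 4 seed storage and 0 of 3 floral organ markers had one. In whole seedlings, fewer cells of a type and less RNA per cell cannot be told apart.

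No probe set passed the test of the interaction. With limma and the replicate letter as a block, 0 of 22746 probe sets had a Benjamini-Hochberg adjusted p under 0.05 (0%), and the smallest adjusted p was 0.392. At an unadjusted p under 0.05 there were 910 probe sets with a positive difference (4%) and 820 with a negative one (3.61%), or 7.61% in all. The number of arrays limited the precision. The median standard error of the difference was 0.232, and a probe set with that error would have needed a difference of 3.17 to pass alone. For 14779 probe sets (65%) the 95% interval of the difference lay between -1 and 1, so that any larger difference lay outside it. For the other 7967 (35%) the interval extended to -1 or 1 or past them. No filter on low values was set, so these shares and the median error include probe sets near the low end of the scale. There an error can be small with little signal to change. The flowering promoter FD, with group means of 2.04 to 2.05, had an error of 0.049, against 1.38 for BCAT4, whose highest group mean was 9.72. A narrow interval at low levels thus does not show a like response.

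The temperature changes of the genotypes ran largely in parallel. Across probe sets they had a Pearson correlation of 0.836 and a Spearman correlation of 0.734, as a description over 22746 points that share arrays and letters. They share no array between the genotypes. Within letters the Pearson correlation was 0.791 in letter A, 0.768 in letter B and 0.526 in letter C. Differences of at least 1 in size were measured for 422 probe sets on the positive side (1.86%) and 527 on the negative side (2.32%). Of the 422, the change had the same sign in both genotypes and was larger in pft1-1 for 320, was larger in WT for 27, and had opposite signs for 75. Of the 527, the corresponding counts were 353, 13 and 161. Most large differences were thus a larger change in the mutant in the direction that WT also took, and changes of opposite sign were more common among the negative differences.

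**Figure D1:**
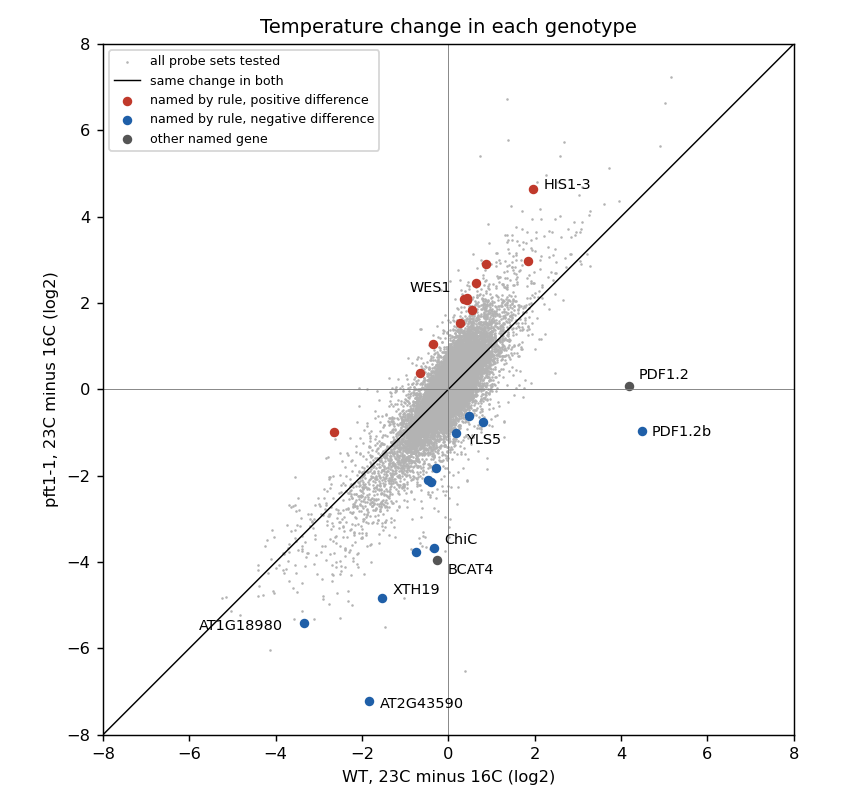
Temperature change (23C minus 16C, log2) in pft1-1 on the vertical axis against that in WT on the horizontal axis, 1 point per probe set, with the line of equal change. PDF1.2b and PDF1.2 lie far below the line at WT changes of 4.49 and 4.19, AT2G43590 lies lowest at a pft1-1 change of -7.22, and HIS1-3 lies above the line at 4.65 against 1.96.

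The spread of the temperature change was wider in pft1-1 than in WT, with a standard deviation across probe sets of 0.811 in pft1-1 and 0.583 in WT. Among the 2180 probe sets whose change averaged over both genotypes was at least 1 in size, the median size of the change was 1.77 in pft1-1 and 1.22 in WT, and 82.7% had the larger change in pft1-1. The share was 83.3% of the 875 probe sets higher at 23C and 82.3% of the 1305 lower at 23C. Probe sets chosen and read in letter B alone were a different set. There the share was 49.6% of 758 higher at 23C and 63.4% of 1175 lower at 23C. The median difference in size of those 758 was -0.0098. When the 2180 probe sets were read in letter B, the pft1-1 change went further than that of WT in the direction of their average for 63.6%. Choosing probe sets by the average can favour the genotype with the noisier values, so the sizes were also read in each letter for probe sets chosen in the other letters, a form of the comparison devised after the data had been seen. In letter A the median size was then 1.86 in pft1-1 and 1.40 in WT, in letter B 1.26 in pft1-1 and 1.03 in WT, and in letter C 1.94 in pft1-1 and 0.96 in WT. A probe set was counted where its pft1-1 change went further than that of WT in the direction seen in the other letters. The share counted was 70.1%, 65.3% and 76.3% in letters A, B and C. The median of the difference along that direction was above 0 in all 3 letters. The exact sign-flip permutation test gave p = 0.25, the smallest that 3 letters allow, so the test could not pass. The difference was smallest in letter B and largest in letter C. With no letter held out, the share with the larger change in pft1-1 was 72.9% of 2214 probe sets chosen and read in letters A and B together. It was 82.7% in all letters.

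**Figure D2:**
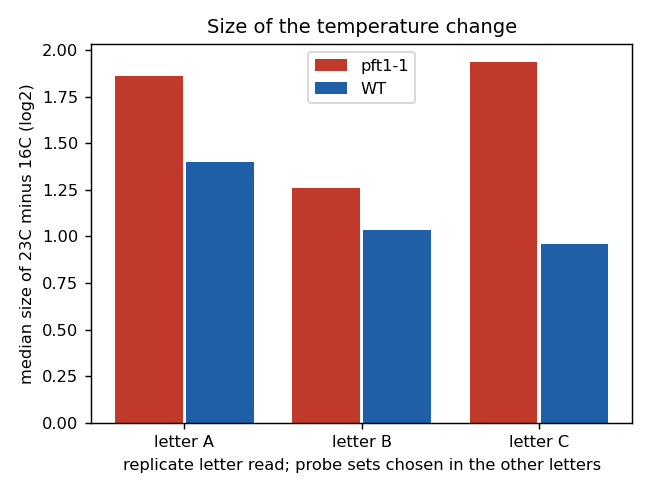
Median size of the temperature change (log2) in pft1-1 and WT, read in 1 letter for probe sets chosen in the other letters. The pft1-1 bar stands above the WT bar in every letter, by the least in letter B (1.26 against 1.03) and the most in letter C (1.94 against 0.96).

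The largest negative differences among genes named by the rule were in 2 plant defensins and a group of genes with lower levels at 23C. The 12 genes on this side were PDF1.2b, AT2G43590, ChiC, XTH19, AT4G16260, AT1G18980, AT2G25510, TAAC, AT1G75960, AT5G26670, YLS5 and AT1G66880, with differences from -5.45 to -1.10 and adjusted p from 0.392 to 0.492 in limma. They have the smallest p-values among genes with a difference of 1 sign in all 3 letters, at least 1 in size, and at least 1 group mean above the median of all values, so that agreement between letters was part of their choice, and none passed. For 8 of the 12 the mean level was lower at 23C in both genotypes and the change was larger in pft1-1, and for 4 the changes had opposite signs. The WT change was not below 0 in every letter for all 8. In letters A, B and C it was -0.84, -0.59 and 0.23 for AT2G25510, and 0.29, -0.69 and -0.49 for AT5G26670. Across all probe sets, the 3 letter changes of pft1-1 lay below all 3 of WT for 5.76% and above all 3 for 7.45%.

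PDF1.2b encodes a plant defensin, a small antifungal peptide whose gene is a standard marker of the combined jasmonate and ethylene response. Its levels in letters A, B and C were 3.41, 2.82 and 2.97 in pft1-1 at 23C and 2.96, 4.04 and 5.06 in pft1-1 at 16C. They were 8.70, 10.30 and 10.96 in WT at 23C and 6.54, 5.01 and 4.93 in WT at 16C. In WT every 23C array lay above every 16C array, and in pft1-1 the temperatures overlapped at low levels. The temperature change was -0.96 in pft1-1 and 4.49 in WT, a difference of -5.45 ± 1.06 (SE; 95% interval -7.95 to -2.94; adjusted p = 0.492), and the letters gave -1.70, -6.51 and -8.13. In Affymetrix naming the suffix of this probe set marks probes that can match related transcripts, so its signal may include other defensin genes, and its values and those of PDF1.2 may not be independent.

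PDF1.2, the closely related defensin gene most often used as the marker, had its own probe set. Its levels were 4.23, 3.08 and 4.01 in pft1-1 at 23C and 3.72, 3.68 and 3.69 in pft1-1 at 16C, against 8.0, 10.00 and 10.23 in WT at 23C and 6.25, 4.82 and 4.58 in WT at 16C. The pft1-1 arrays stayed at or under 4.23 at both temperatures, while all WT arrays were above that level and highest at 23C. The temperature change was 0.08 in pft1-1 and 4.19 in WT, a difference of -4.11 ± 0.99 (SE; adjusted p = 0.528 in limma). Letter A gave -1.23 and letters B and C gave -5.78 and -5.33, so letter A had the smallest difference for both defensins.

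The other measured members of the jasmonate and ethylene defence list also had negative differences. OSM34, an osmotin-like antifungal protein, had a temperature change of -2.57 in pft1-1 and -1.02 in WT (difference -1.55 ± 0.53 SE, adjusted p = 0.596), with letters at -2.08, -1.54 and -1.03. LCR67, a defensin near the low end of the scale on all arrays, had a difference of -0.42. The list thus had 4 of 10 genes measured, 0 called in either direction (0% of all probe sets), 3 of 4 at an unadjusted p under 0.05 (3.61% of all probe sets in this direction), and a median of -2.83, beside a median of 0.02 over all 13355 genes with a value. The wider family of plant defensins, 13 genes that include 3 of these, had a median of -0.11. Of its members 8 were negative, beside 39.3% of all genes, and 5 positive. Shares of all genes by sign, here and below, count every gene, also those near the low end of the scale. PDF1.4 had a difference of 1.56 with -0.17, 0.25 and 4.59 in letters A, B and C, and 0.0449 without letter C.

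A chitinase gene, a wall-modifying gene and genes listed only by their locus tags were near the low end of the scale in pft1-1 at 23C. AT2G43590, listed only by its locus tag, was measured at 2.42, 3.11 and 2.99 in pft1-1 at 23C and at 10.39, 9.23 and 10.55 in pft1-1 at 16C. In WT it was measured at 6.14, 7.29 and 5.84 at 23C and at 9.11, 8.09 and 7.58 at 16C. The temperatures did not overlap in either genotype, and the pft1-1 arrays lay outside the WT range on both sides. The change was -7.22 in pft1-1 and -1.83 in WT, a difference of -5.38 ± 0.81 (SE; 95% interval -7.30 to -3.47; adjusted p = 0.404), with letters close together at -5.00, -5.32 and -5.83.

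ChiC, a class V chitinase that cuts chitin of fungal walls, had levels of 2.53, 4.08 and 2.52 in pft1-1 at 23C and 7.35, 6.69 and 6.13 in pft1-1 at 16C, against 4.49, 4.69 and 3.79 in WT at 23C and 4.86, 4.93 and 4.19 in WT at 16C. The WT temperatures overlapped and the pft1-1 temperatures were well apart. Its change was -3.68 in pft1-1 and -0.34 in WT, a difference of -3.34 ± 0.49 (SE; adjusted p = 0.404 in limma). AT4G16260 had a change of -3.78 in pft1-1 and -0.74 in WT and letters at -3.49, -3.57 and -2.05.

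XTH19, a xyloglucan endotransglucosylase/hydrolase that cuts and rejoins wall polysaccharides during growth, had levels of 3.67, 3.63 and 3.30 in pft1-1 at 23C and 8.76, 8.64 and 7.69 in pft1-1 at 16C. The WT levels were 5.79, 6.73 and 6.26 at 23C and 8.36, 7.41 and 7.62 at 16C. The 16C levels of the genotypes overlapped, and at 23C all pft1-1 arrays lay below all WT arrays. Its change was -4.83 in pft1-1 and -1.54 in WT, a difference of -3.29 ± 0.49 (SE; adjusted p = 0.404 in limma). Of the 10 XTH genes measured, XTH20 also had a negative difference, -1.70 (adjusted p = 0.570), and was chosen for mention after its value was seen. The median of the family was -0.03, with 5 members positive and 5 negative, and XTH16 was highest at 0.33.

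**Figure D3:**
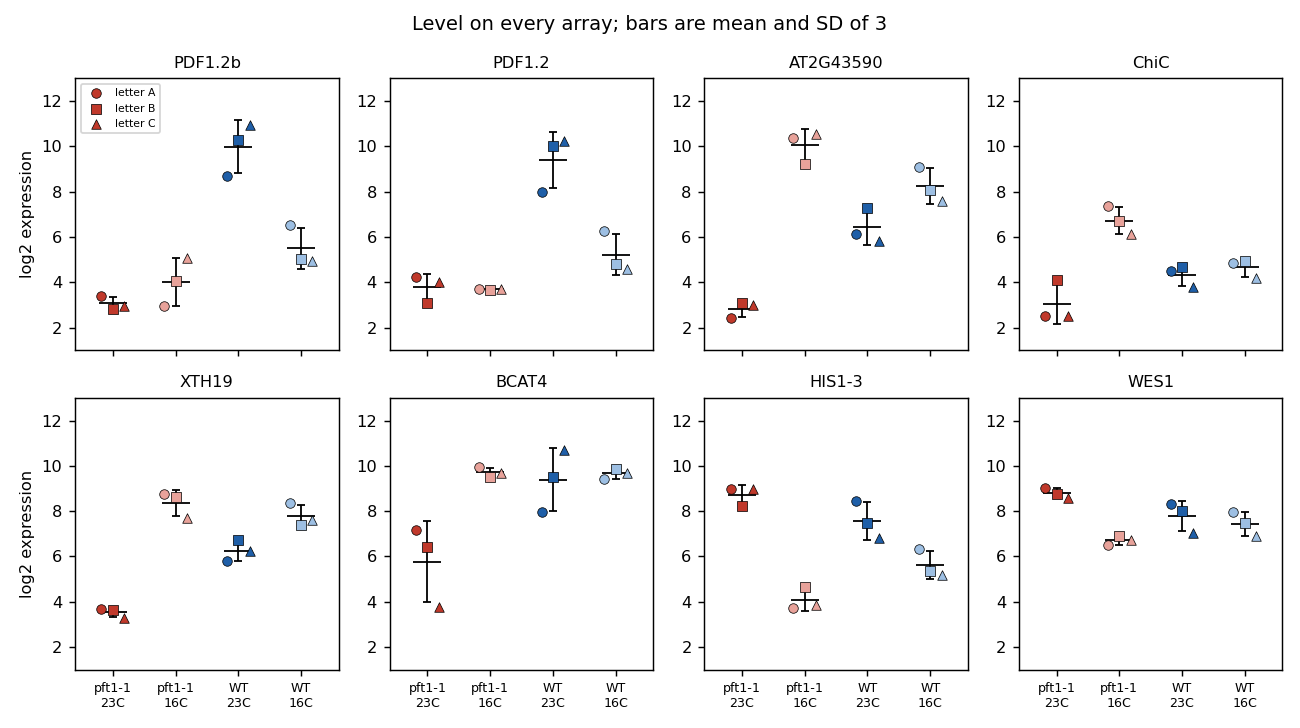
Log2 level of 8 genes on every array in the 4 groups, pft1-1 left of WT and 23C left of 16C, with a marker shape for each letter and bars for the mean and SD of 3 arrays. PDF1.2b and PDF1.2 stay low in pft1-1 at both temperatures, AT2G43590, ChiC, XTH19 and BCAT4 are lowest in pft1-1 at 23C, and HIS1-3 and WES1 are lowest in pft1-1 at 16C.

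AT1G18980 had the smallest p of all 22746 probe sets. Its levels were 3.38, 3.27 and 3.41 in pft1-1 at 23C and 9.14, 8.41 and 8.74 in pft1-1 at 16C, against 4.30, 4.03 and 3.78 in WT at 23C and 7.46, 7.25 and 7.44 in WT at 16C. All 4 groups were apart from one another. The change was -5.41 in pft1-1 and -3.35 in WT, a difference of -2.07 ± 0.20 (SE; 95% interval -2.55 to -1.58), and its adjusted p of 0.392 in limma was still far from the threshold. TAAC, the ATP/ADP carrier of the thylakoid membrane, had a change of -2.11 in pft1-1 and -0.46 in WT, a difference of -1.64 ± 0.33 (SE; adjusted p = 0.492) with letters at -1.67, -1.10 and -2.16. AT2G25510, one of the more abundant of these at 10.23 in pft1-1 and 11.43 in WT at 23C, had a difference of -1.74 with letters at -1.59, -0.95 and -2.69. AT5G26670 had -1.53 with letters at -2.60, -0.77 and -1.22.

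For 4 of the 12 negative genes the temperature changes had opposite signs, and 3 of these had all letters of each genotype on one side of 0. YLS5, a member of the DJ-1 protein family, had a change of -1.01 in pft1-1 and 0.18 in WT (difference -1.19 ± 0.20 SE, adjusted p = 0.427). AT1G75960 had -0.77 in pft1-1 and 0.80 in WT, and AT1G66880 had -0.61 in pft1-1 and 0.48 in WT. The fourth was PDF1.2b, whose letter A change in pft1-1 was 0.45.

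**Figure D4:**
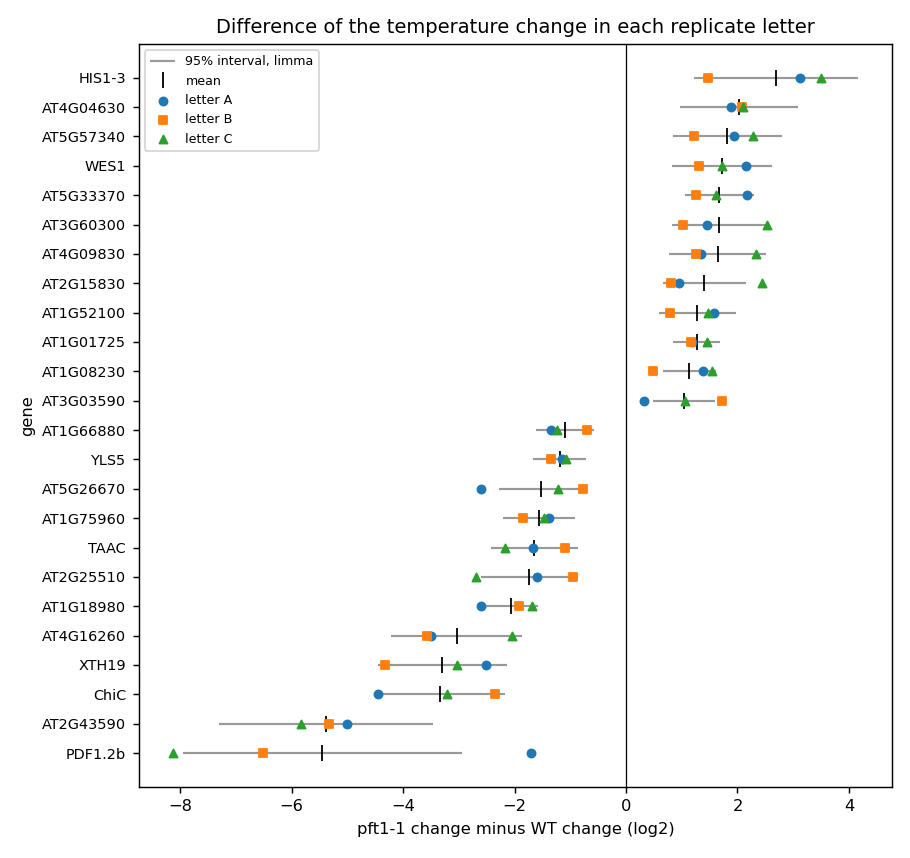
Difference of the temperature change (pft1-1 minus WT, log2) for the 24 genes named by the smallest p in each direction, with 1 marker per letter, the mean as a tick and the 95% interval of limma as a line. All letters of each gene lie on 1 side of 0, which the choice required, and PDF1.2b has the widest span, -8.13 to -1.70.

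On the positive side the 12 genes were HIS1-3, AT4G04630, AT5G57340, WES1, AT5G33370, AT3G60300, AT4G09830, AT2G15830, AT1G52100, AT1G01725, AT1G08230 and AT3G03590, with differences from 1.04 to 2.70 and adjusted p from 0.404 to 0.515 in limma. None passed. For 9 of the 12 the mean level was higher at 23C in both genotypes and the change was larger in pft1-1. For 2 the changes had opposite signs, and for AT5G33370 both genotypes had lower levels at 23C and the change was larger in WT.

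HIS1-3 encodes a linker histone H1 variant known to respond to drought. Its levels were 8.99, 8.24 and 8.98 in pft1-1 at 23C and 3.73, 4.65 and 3.87 in pft1-1 at 16C, against 8.47, 7.48 and 6.81 in WT at 23C and 6.34, 5.35 and 5.20 in WT at 16C. At 16C all pft1-1 arrays lay below all WT arrays, and at 23C the genotypes overlapped. The change was 4.65 in pft1-1 and 1.96 in WT, a difference of 2.70 ± 0.62 (SE; 95% interval 1.23 to 4.17; adjusted p = 0.515), with letters at 3.13, 1.46 and 3.50.

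WES1, a GH3 enzyme that joins auxin to amino acids, had levels of 9.02, 8.76 and 8.59 in pft1-1 at 23C and 6.49, 6.91 and 6.72 in pft1-1 at 16C. Its WT levels were 8.33, 8.03 and 7.05 at 23C and 7.96, 7.48 and 6.89 at 16C. The WT temperatures overlapped and the pft1-1 temperatures did not. The change was 2.08 in pft1-1 and 0.36 in WT, a difference of 1.72 ± 0.38 (SE; adjusted p = 0.497 in limma). AT4G04630 had the most even letters on this side, 1.89, 2.09 and 2.1, with a change of 2.90 in pft1-1 and 0.87 in WT.

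AT5G33370 had lower levels at 23C in both genotypes, with the larger change in WT. Its levels were 1.76, 2.35 and 1.77 in pft1-1 at 23C and 2.90, 3.37 and 2.53 in pft1-1 at 16C, against 2.96, 4.02 and 3.19 in WT at 23C and 6.27, 6.30 and 5.57 in WT at 16C. The WT 16C arrays stood alone above all others, and the pft1-1 23C mean of 1.96 was under the lower quartile of all values, 2.52, where a change can be compressed. The change was -0.98 in pft1-1 and -2.65 in WT, a difference of 1.68 ± 0.27 (SE; adjusted p = 0.404).

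Most of the remaining positive genes had small WT changes. AT3G60300 had a change of 2.11 in pft1-1 and 0.44 in WT. AT4G09830, at 11.59 in pft1-1 at 23C and 9.52 in pft1-1 at 16C, had a change of 2.07 in pft1-1 and 0.43 in WT. AT5G57340 had 2.47 in pft1-1 and 0.65 in WT, AT1G52100 had 1.84 in pft1-1 and 0.56 in WT, and AT1G01725 had 1.54 in pft1-1 and 0.28 in WT. Among the genes with opposite signs, AT2G15830 had 1.05 in pft1-1 and -0.35 in WT, and AT3G03590 had 0.39 in pft1-1 and -0.65 in WT. AT1G08230 had a change of 2.98 in pft1-1 and 1.84 in WT.

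Of the gene lists, the glucosinolate genes stood next to the defence list in size. Glucosinolates are the sulphur-containing defence compounds of the cabbage family, made from amino acids and cut by glucosidases on wounding. Of the 26 genes listed, 5 were measured, and all 5 had a negative difference of 1 sign in every letter, beside 12.8% of all probe sets with a negative difference of 1 sign (31.1% in either direction). Their median was -1.64, beside 0.02 over all genes. At an unadjusted p under 0.05 there were 4 of 5 (3.61% of all probe sets in this direction), and 0 were called. The lists were chosen with earlier results of these data known, so these counts are description only. The median over the list was -1.0 in letter A, -1.60 in letter B and -2.53 in letter C.

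BCAT4, the aminotransferase that starts methionine chain elongation, had the largest difference of the list. Its levels were 7.15, 6.41 and 3.75 in pft1-1 at 23C and 9.94, 9.52 and 9.69 in pft1-1 at 16C, against 7.95, 9.51 and 10.72 in WT at 23C and 9.43, 9.87 and 9.69 in WT at 16C. The pft1-1 23C arrays lay below all others, and letter C set the extremes at 23C in both genotypes. The change was -3.94 in pft1-1 and -0.27 in WT, a difference of -3.67 ± 1.38 (SE; adjusted p = 0.620 in limma), with letters at -1.31, -2.75 and -6.96 and -2.03 without letter C.

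GSTU20, a glutathione transferase tied to the same pathway, had a difference of -2.82 ± 0.93 (SE; adjusted p = 0.580), with letters at -1.43, -1.64 and -5.40 and -1.53 without letter C. UGT74B1, which adds glucose in the core of the pathway, had levels of 8.50, 8.46 and 7.24 in pft1-1 at 23C and 9.19, 8.93 and 8.71 in pft1-1 at 16C, against 8.68, 9.94 and 9.63 in WT at 23C and 8.59, 8.81 and 8.56 in WT at 16C. All letter changes were below 0 in pft1-1 and above 0 in WT, and the means were -0.87 in pft1-1 and 0.76 in WT (difference -1.64 ± 0.54 SE, adjusted p = 0.577). UGT74C1 (AT2G31790), a related glucosyltransferase, had the smallest error of the list, with a change of -0.54 in pft1-1 and 0.60 in WT (difference -1.15 ± 0.25 SE, adjusted p = 0.497). PYK10, a highly expressed beta-glucosidase of roots, had -0.36.

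The flavonoid and anthocyanin list, the pigment pathway, had 4 of 17 genes measured and a median of -1.38. Of these 3 were negative, beside 39.3% of all genes, 1 was positive and 0 were called. DFR, the reductase that commits the pathway to anthocyanins, had levels of 2.43, 2.45 and 2.49 in pft1-1 at 23C and 9.77, 7.32 and 6.17 in pft1-1 at 16C, against 2.49, 5.50 and 6.68 in WT at 23C and 7.72, 7.21 and 7.23 in WT at 16C. The WT 23C arrays spread from the bottom of the scale to near the 16C level. The pft1-1 16C arrays spread from 6.17 to 9.77. The difference was -2.80 ± 1.74 (SE; adjusted p = 0.759 in limma), and the letters were -2.11, -3.15 and -3.13. The glycosyltransferases UGT75C1 (AT4G14090) and UF3GT had -1.41 and -1.36, and AT5MAT, an anthocyanin acyltransferase, had 0.13. At 23C AT5MAT averaged 2.37 in pft1-1 and 2.45 in WT, and DFR and UF3GT each averaged 2.46 in pft1-1. These means were under the lower quartile of all values, 2.52, where a change can be compressed.

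The cold list gave no common direction. COR15A, a chloroplast protein that protects membranes in the cold, had a change of -3.38 in pft1-1 and -1.38 in WT (difference -1.99 ± 0.89 SE, adjusted p = 0.662). COR47, a dehydrin, had 0.05 in pft1-1 and -0.88 in WT (difference 0.93 ± 0.35 SE, adjusted p = 0.620), with 0.51, 0.20 and 2.1 in letters A, B and C, and 0.35 without letter C. COR15B had -0.84 and LTI30, another dehydrin, had -0.02 with changes of -3.40 in pft1-1 and -3.39 in WT. The median of the 4 of 18 genes measured was -0.43.

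Among Mediator subunits, the other parts of the complex that PFT1 belongs to, 11 of 29 were measured, with a median of 0.14, 9 positive, 2 negative and 0 called, beside 60.7% of all genes positive. MED10B (AT1G26665), a subunit of the middle module, had levels of 10.58, 9.84 and 10.75 in pft1-1 at 23C and 8.40, 8.50 and 7.99 in pft1-1 at 16C, against 9.77, 9.24 and 8.84 in WT at 23C and 8.69, 8.90 and 9.01 in WT at 16C. The pft1-1 23C arrays were above all others. The change was 2.1 in pft1-1 and 0.41 in WT, a difference of 1.68 ± 0.43 (SE; adjusted p = 0.528 in limma), with letters at 1.11, 1.0 and 2.94 and 1.06 without letter C. The other 10 subunits had differences between -0.23 and 0.52.

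The autophagy genes, which build the membrane that carries cell contents to the vacuole, had small differences on 1 side of 0. All 11 were positive, from 0.14 for ATG3 to 1.03 for ATG8E, 7 had 1 sign in all letters (18.3% of all probe sets were positive in all), 1 had an unadjusted p under 0.05 and 0 were called. Their median was 0.43, beside 0.02 over all genes, and was 0.25 in letter A, 0.12 in letter B, 0.94 in letter C and 0.21 without letter C. Of all genes 60.7% were positive. The 11 genes, apart from ATG3 and AT5G66930, carry ATG8 or APG8 names and are members of 1 family, so their common sign does not cover the pathway at large. In ATG8C, a member of the ubiquitin-like ATG8 group, the letters were 0.48, 0.57 and 0.78, with a change of 0.52 in pft1-1 and -0.09 in WT. The median temperature change of the 11 genes was 0.35 in pft1-1 and -0.15 in WT.

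**Figure D5:**
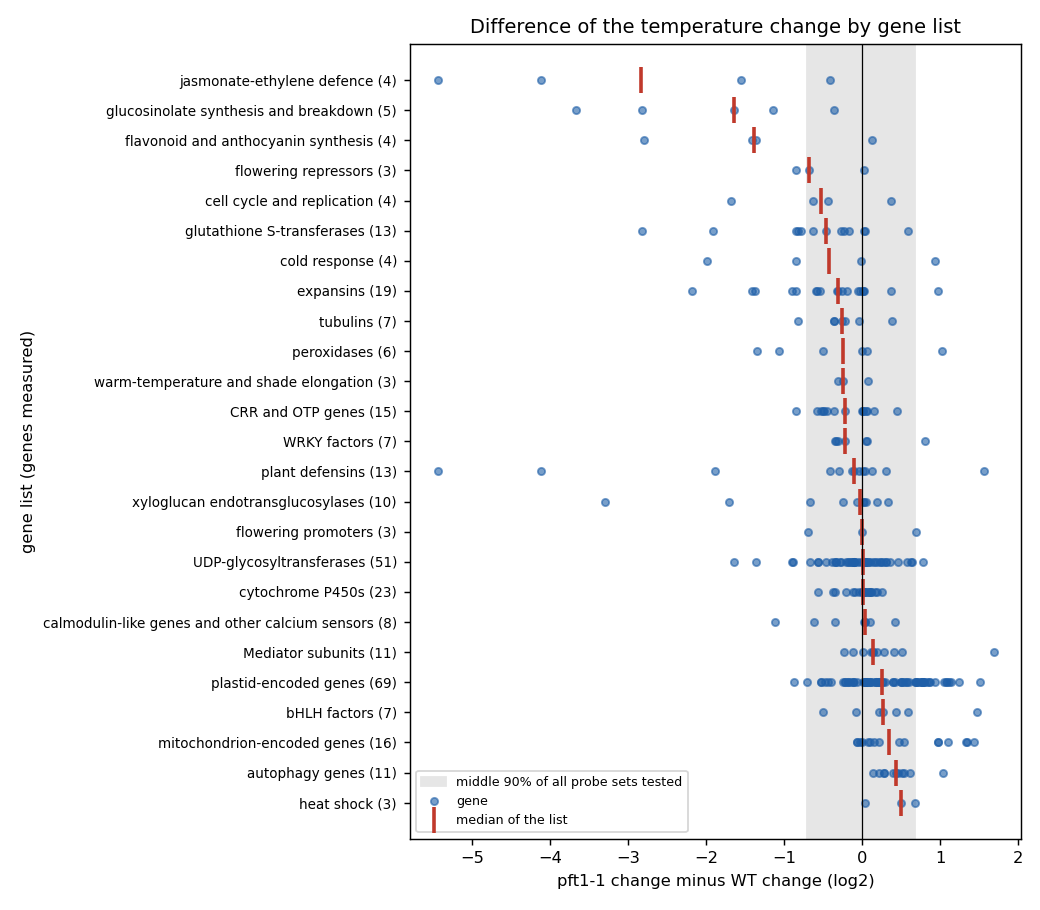
Difference of the temperature change (pft1-1 minus WT, log2) of each gene in the lists and families with at least 3 genes measured, ordered by the median (red tick), over the middle 90% of all probe sets (-0.70 to 0.67, shaded). The shaded range describes single probe sets and is no reference for a median. The lowest medians are those of the defence, glucosinolate and flavonoid lists, at -2.83, -1.64 and -1.38, and all autophagy genes lie right of 0.

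Glutathione transferases, which join glutathione to toxic compounds, had 10 of 13 genes on the negative side, beside 39.3% of all genes. Their median was -0.47, and the lowest was GSTU20, at -2.82, which is also in the glucosinolate list. GSTU25 had a change of -6.03 in pft1-1 and -4.12 in WT (difference -1.91 ± 0.69 SE, adjusted p = 0.602). Its letters were -3.91, -0.61 and -1.21, and without letter A the difference was -0.91. GSTU22 had -3.76 in pft1-1 and -2.94 in WT. GSTU16 was highest at 0.59. The expansins, which loosen the wall, had a median of -0.32 over 19 genes and spanned -2.18 (EXLB1) to 0.98 (EXLA1). EXLB1 had letters at -0.53, -3.41 and -2.59. EXLA1 had 0.28, -0.92 and 3.57, and -0.32 in letters A and B together. The tubulins, with 0 under the lower quartile in all groups, had 6 of 7 genes negative, beside 39.3% of all genes at any level. Their median was -0.26, which was 0.12 in letter A, -0.34 in letter B and -0.55 in letter C, and -0.0934 in letters A and B together.

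Genes encoded in the plastid had a different balance in each letter. Of 69 plastid-encoded genes, 52 were positive, beside 60.7% of all genes, 3 of them were at an unadjusted p under 0.05, beside 4% of all probe sets, and the median was 0.26. That median was 0.88 in letter A, 0.03 in letter B and -0.13 in letter C, so letters did not share a direction. The highest was rpoB, a subunit of the plastid RNA polymerase, at 1.51 (0.73 without letter C), and the lowest was the ribosomal protein gene rpl22 at -0.88. The 16 mitochondrion-encoded genes had a median of 0.34 with 13 positive, beside 60.7% of all genes. Their median was 0.37 in letter A, 0.0581 in letter B and 0.84 in letter C, and 0.0399 in letters A and B together. In this group nad1, a subunit of respiratory complex I, was highest at 1.44 ± 0.75 (SE; adjusted p = 0.710 in limma).

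Of the flowering and cell-cycle genes measured, 0 were called. GI, a clock-linked activator of flowering, had levels of 7.55, 7.46 and 7.98 in pft1-1 at 23C and 6.91, 7.56 and 7.71 in pft1-1 at 16C, against 7.19, 7.27 and 6.65 in WT at 23C and 7.33, 7.43 and 7.61 in WT at 16C. All 4 groups overlapped or nearly did, with the lowest array in WT at 23C. The difference was 0.68 ± 0.35 (SE; adjusted p = 0.708 in limma). The floral repressors SMZ and SNZ had -0.84 and -0.69 with intervals that crossed 0. The 3 flowering promoters measured had a median of 0.00126, the 3 repressors -0.69 and the 4 cell-cycle genes -0.53, and without letter C the last of these was -0.12. The promoter median was the value of FD, whose group means of 2.04 to 2.05 did not reach the lower quartile of 2.52. AGL24 averaged 2.30 and 2.23 in pft1-1 at 23C and 16C and 2.25 in WT at 16C. Its WT 23C arrays were at 2.28, 2.27 and 4.52 in letters A, B and C. A change can be compressed at such levels, so this median cannot show whether flowering promoters responded alike in both genotypes. The cell-cycle kinase AUR1 had -1.69, with -0.37, -0.55 and -4.14 in letters A, B and C, and -0.46 without letter C.

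Other lists and families with at least 3 genes measured had medians from -0.25 to 0.50. The 3 heat shock genes had a median of 0.50, with letter medians of 0.14, -0.32 and 2.03. The medians were -0.25 for 3 genes of elongation in warmth and shade, -0.22 for 7 WRKY factors, -0.25 for 6 peroxidases, -0.23 for 15 genes with CRR or OTP names, 0.26 for 7 bHLH factors, 0.03 for 8 calcium sensors, and 0.01 for both 23 cytochrome P450s and 51 UDP-glycosyltransferases. None of these had a called member. Of the 3 elongation genes, 2 stayed under the lower quartile of 2.52 in all groups, and the median was the value of 1 of them, XTH33. A change can be compressed at such levels, so this median cannot show whether elongation genes responded alike in both genotypes. The iron-deficiency factor BHLH101 had the highest bHLH difference, 1.47, with an interval of -0.98 to 3.91.

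Probe sets with no gene named here held the extremes. The lowest difference of all was -6.92 for 256766_at (letters -7.49, -2.54 and -10.72) and the highest was 5.36 for 252415_at (letters 4.26, 4.48 and 7.32), both picked after their values were seen. By the naming rule, the smallest p among unnamed probe sets belonged to 263805_at, with a difference of -0.85 ± 0.11 (SE; adjusted p = 0.404 in limma), and to 258249_s_at, with 1.41 ± 0.20 (SE; adjusted p = 0.404).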

How the data were processed

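The table deposited by the authors holds log2 values, 1 per probe set and array. RMA and affy are named, unversioned, in the submitters' processing notes. Per the labels' protocols, biotinylated cRNA was made from 5 ug of total RNA. Scans, probe definitions and hybridisation dates were not used here. No filter on low values was set, 64 control probe sets were left out, and 0 pairs of arrays had identical values.

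A linear model was fitted per probe set (limma 3.58.1, R 4.3.3; lmFit, eBayes) with 4 group means and the letter as a fixed block on all 12 arrays (6 residual and 1.14 prior degrees of freedom), and tested two-sided with Benjamini-Hochberg adjustment over 22746 probe sets. The threshold was an adjusted p under 0.05. The number of arrays and their spread limit the precision. Deviations from the group means of same-letter arrays correlated at 0.12 to 0.42 in A, -0.10 to 0.47 in B and 0.16 to 0.53 in C, so the letters did not pair every array. The block is part of the stated design.

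Genes came from the platform annotation, matched to a gene table: 13513 probe sets had 1 gene, 503 several and 8730 none. Lists used 1 probe set per gene, the one with the highest mean. Of 263 distinct listed genes 53 were measured. Named were, in each direction, the 12 smallest p-values with 1 sign in all letters, at least 1 in size and a group mean above the median value, the extremes of each list, fixed genes, and, of any size, the 2 smallest p-values among probe sets with no gene. Members of lists with 5 or fewer measured genes, list members at an unadjusted p under 0.05 and genes called when an array was left out were added after values were seen. Members and lists were chosen with earlier results of these data known, and family patterns were corrected after matches and values had been seen. Lists received no test. The fit was tested on simulated data. Python 3.11.15, pandas 2.3.3 and matplotlib 3.10.9 made tables and plots. The alternatives were other blocks, letters, scalings, prior variances, weights and filters, and leaving out each array.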

Additional observations from a re-analysis of the deposited data

Results flagged for a closer look

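In 7 named probe sets every letter of pft1-1 had a temperature change of one sign and every letter of WT the opposite sign. The differences were 1.40 for AT2G15830, -1.19 for YLS5, -1.56 for AT1G75960, -1.10 for AT1G66880, -1.64 for UGT74B1, -1.15 for AT2G31790 and -0.85 for 263805_at. The interaction test of limma covers each of them, and none passed, with adjusted p between 0.404 and 0.577. All but UGT74B1 and AT2G31790, which came from the gene lists, were named for their small p, so the opposite signs follow in part from the choice. The share of all probe sets with such opposite signs is not given here, so the count of 7 has no reference. In a wider pattern, the pft1-1 letter changes lay all below those of WT for 5.76% of all probe sets. They lay all above for 7.45%.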

How the results depend on the processing

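No probe set was called under any alternative fitted to all 12 arrays or to pairs of letters. Without the replicate block 0 were called in limma (1259 at an unadjusted p under 0.05), as with a random block, letter C as block, other scalings, an intensity trend, a robust prior, weights, the upper 60% by mean or 1 probe set per gene. Array weights gave 3999 at an unadjusted p under 0.05 but their estimate did not converge. Leaving out each array gave 0 to 6 calls: 6 without pft1-1 16C A (AT4G16230, AT1G49570, TBL15, 253894_at, 253895_at and 254095_at, all negative), 1 without pft1-1 16C B (260225_at, negative), 2 without pft1-1 23C B (AT3G57700 and AT2G07705, positive) and 0 for the other 9 arrays. In each probe set called, the array left out was the one furthest from the others of its group. The other groups had low means, 3.25 or under. In 253895_at the pft1-1 16C arrays were at 2.76, 5.00 and 5.61 in letters A, B and C. In AT2G07705 the pft1-1 23C arrays were at 4.26, 2.35 and 4.04. These calls thus rest on dropping the array that disagreed, for probe sets with little spread elsewhere.

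The correlation between genotypes was 0.526 in letter C alone. For probe sets chosen and read in the same letters, the share with a larger change in pft1-1 was 71.3% in letter A alone. It was 58.0% in letter B alone and 72.9% to 83.6% without 1 letter. List medians that moved by more than their spread between letters were those of flowering promoters (0.0631 in letters A and B, 0.00126 in all), plant defensins (-0.0904 after renewed quantile normalisation, -0.0469 in A and B), UDP-glycosyltransferases (-0.14 in A and B), WRKY factors (-0.0396 in A and B) and peroxidases (-0.00181 in A and B).

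Of 2666 values of 108 named probe sets under alternatives, 48 had the opposite sign, in 13 probe sets, and many of the rest kept theirs by choice. In letters A and B alone these were AT5G51440 -0.0925, AT5MAT -0.27, AGL24 0.0631, AT1G69570 -0.41, AT2G22370 0.21, EXLA1 -0.32, TUA1 -0.0934, AT5G48570 -0.27 and FD -0.00851. In A and C alone they were AT5MAT -0.39 and OTP85 -0.0421, and in B and C alone WRKY6 0.0593 and LTI30 0.29. With array weights AT2G22370 had 0.38 and LTI30 0.33, with renewed quantiles LTI30 0.0162 and FD -0.0109, and with median centring LTI30 0.0141. Without 1 array, the ranges were -0.15 to 1.39 for AT5G51440, -0.68 to 0.0518 for EXPA8, -0.35 to 0.96 for AT5MAT, -1.08 to 0.0508 for AGL24, -0.28 to 0.49 for AT1G69570, -0.51 to 0.22 for AT2G22370, -0.77 to 0.14 for WRKY6, -0.41 to 0.23 for LTI30, -0.14 to 1.32 for AT5G48570 and -0.00671 to 0.00955 for FD. The cause was not tested.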
